A study of Drosophila montana with 12 samples.

Results

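The contigs described here are those paired with 3 transcription regulators in whole *D. montana* females: contig_25159 with *salr*, contig_26556 with *MED28*, and contig_4401 with *spen*. They were taken as the study pairs them with gene names, together with every other contig that carries the same blast hit. This gave 15 of the 31233 contigs in the count tables: 1 contig with the hit of *salr* (FBgn0200527), 2 with the hit of *MED28* (XP_002056316), and 12 with the hit of *spen* (XP_002051899). The study listed the 3 contigs as differentially expressed (DE) between light cycles in diapausing females in these same libraries, so that contrast is no independent support for them here.

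RNA was sequenced from 12 pools of 10 whole females of 21 d of age, with 3 libraries in each of 4 groups: diapausing females at LD 16:8 (16 h of light and 8 h of dark), diapausing females at the critical day length (CDL), and nondiapausing females at the CDL or at LD 22:2 (22 h and 2 h). The CDL is the light cycle at which part of a population enters diapause, so that both kinds of female can be taken from one light cycle. Its label adds up to 23 h, with 17.5 h of light and 5.5 h of dark, and the methods of the study give 1 h more of light. All flies came from isofemale lines, each the offspring of one wild female from Finland. The LD 16:8 and LD 22:2 libraries were all of line 175OJ8, and in each CDL group the lines 175OJ8, 265OJ8, and 3OL8 had 1 library each. Light cycle and line therefore overlap in part in both light cycle comparisons, and 175OJ8 is the line found in all 4 groups. Females were sorted by ovary dissection, and diapausing females have small ovaries without yolk. The labels do not say whether pools of one group came from separate cultures, so *P* values measure only the spread between these libraries.

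In *D. melanogaster*, *salr* (*spalt-related*) encodes a zinc finger transcription factor, the sister gene of *salm*, that acts in the patterning of the wing, the eye, and the trachea. *MED28* encodes a subunit of Mediator, the large complex that connects transcription factors at enhancers with RNA polymerase II at promoters. *spen* (*split ends*) encodes a very large nuclear protein that binds RNA and recruits repressors of transcription, with known roles in Notch, Wingless, and EGF receptor signaling and in the growth of axons. Diapause in females of this fly is an arrest of egg development under short days, in which yolk uptake by the ovary stops.

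Totals ran from 2986505 to 6637623 reads per library, and levels are given as raw counts or as CPM, counts scaled to library size with TMM factors, which adjust for composition. These factors were 0.837 to 0.921 in diapausing and 1.09 to 1.15 in nondiapausing libraries. The diapause labels were checked with the yolk protein genes: *Yp2* (contig_8009) ran from 23.5 to 124 CPM in the 6 diapausing libraries, against 258 to 453 CPM in the 6 nondiapausing libraries. Each library had contigs in which it lay at least 5 times above every other library, 16 in replicate 2 of diapausing females at LD 16:8 and 3 to 15 in each of the other 11. One of those 16 is the *spen* contig. Fold changes are from edgeR's generalized linear model over all 12 libraries with their SE, and a contig was called DE when its likelihood ratio test had a false discovery rate (FDR) under 0.05 over all 31233 contigs.

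*salr* was highest in diapausing females at LD 16:8, intermediate in diapausing females at the CDL, and lowest in nondiapausing females. The *salr* contig had 113, 230, and 116 reads in diapausing LD 16:8 libraries 1, 2, and 3, which are 24.6, 47.7, and 23.7 CPM. In diapausing CDL libraries of lines 175OJ8, 265OJ8, and 3OL8 it had 63, 57, and 53 reads, or 12.8, 11.4, and 12.8 CPM. Replicate 2 stood well above the other LD 16:8 libraries, and the lowest LD 16:8 library lay well above the highest diapausing CDL library.

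In nondiapausing females *salr* was low at both light cycles. It had 31, 54, and 24 reads, or 4.62, 7.95, and 7.12 CPM, in CDL libraries of lines 175OJ8, 265OJ8, and 3OL8. In the LD 22:2 libraries it had 49, 33, and 64 reads, or 6.98, 5.73, and 8.85 CPM. The nondiapausing groups overlapped each other. Levels ran from 11.4 to 47.7 CPM in the 6 diapausing and from 4.62 to 8.85 CPM in the 6 nondiapausing libraries. Such separation was common, since 28.2% of all contigs were higher in diapausing females without overlap at the CDL. Between diapausing LD 16:8 and nondiapausing LD 22:2 females the share was 27.6%, and the share for 6 libraries against 6 was not counted. Counting error alone was 6.59% of the level in the deepest *salr* library and 20.4% in the shallowest.

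*MED28* (contig_26556) had a different order, with high levels away from the CDL in both kinds of female. It had 174, 282, and 155 reads in diapausing LD 16:8 libraries 1, 2, and 3, or 37.8, 58.5, and 31.6 CPM, against 40, 75, and 59 reads, or 8.13, 15.04, and 14.3 CPM, in diapausing CDL libraries of lines 175OJ8, 265OJ8, and 3OL8. Nondiapausing females had 98, 120, and 48 reads at the CDL, or 14.6, 17.7, and 14.2 CPM in the same order of lines, against 257, 136, and 173 reads at LD 22:2, or 36.6, 23.6, and 23.9 CPM. No CDL library, diapausing or not, came above 17.7 CPM, and no library at LD 16:8 or LD 22:2 came below 23.6 CPM. In diapausing females 4.54% of all contigs were higher at LD 16:8 without overlap, and in nondiapausing females 6.71% were lower at the CDL. The share of contigs with both was not counted, and lines 265OJ8 and 3OL8 occurred at the CDL only.

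**Figure D1:**
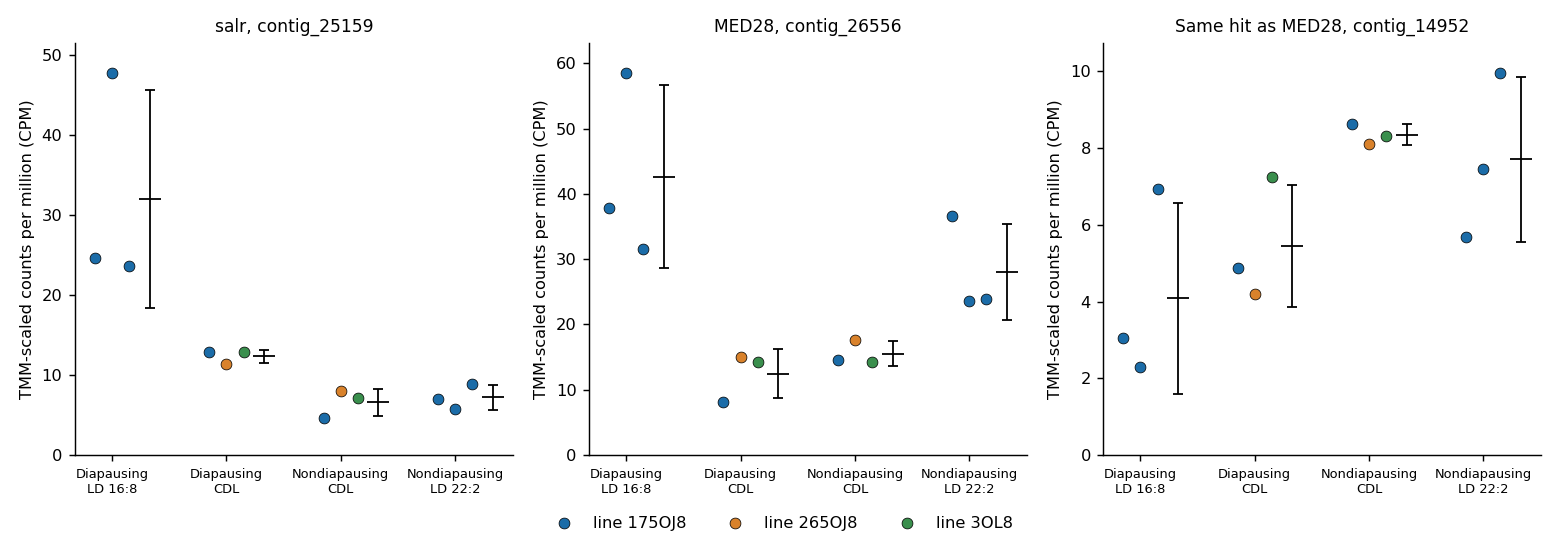
TMM-scaled CPM of the *salr* contig, the *MED28* contig, and the second contig with the *MED28* hit in each of 12 libraries (points, colored by isofemale line), with the mean and SD of 3 libraries per group beside them. *salr* averaged 32.0, 12.3, 6.56, and 7.19 CPM from left to right, and *MED28* averaged 42.6, 12.5, 15.5, and 28.0 CPM.

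The *spen* contig (contig_4401) was flat in 11 libraries and very high in 1. It had 63, 1657, and 60 reads in diapausing LD 16:8 libraries 1, 2, and 3, or 13.7, 344, and 12.2 CPM. Diapausing CDL libraries of lines 175OJ8, 265OJ8, and 3OL8 had 52, 66, and 44 reads, or 10.6, 13.2, and 10.6 CPM. Replicate 2 at LD 16:8 lay 19.9 times above the next highest library, which was a nondiapausing one, and the other LD 16:8 libraries lay near or inside the range of the diapausing CDL group. In nondiapausing females *spen* had 99, 117, and 42 reads at the CDL, or 14.7, 17.2, and 12.5 CPM, and 84, 58, and 90 reads at LD 22:2, or 11.96, 10.1, and 12.4 CPM. Without replicate 2 the 11 libraries ran from 10.1 to 17.2 CPM, and the mean of diapausing females at LD 16:8 was 12.97 ± 1.03 CPM (SD, n = 2), in place of 123 ± 191 CPM (SD, n = 3).

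The first comparison of the study asks how diapausing females at the shorter day length, LD 16:8, differed from diapausing females at the CDL. *MED28* was 3.42-fold higher at LD 16:8, with 42.6 ± 14.1 CPM against 12.5 ± 3.78 CPM at the CDL (SD, n = 3 each; log2 fold change 1.77, SE 0.293, edgeR likelihood ratio FDR = 2.58e-05). *salr* was 2.59-fold higher, with 32.0 ± 13.6 CPM at LD 16:8 against 12.3 ± 0.798 CPM at the CDL (SD, n = 3 each; log2 fold change 1.37, SE 0.298, edgeR FDR = 0.00368). The groups did not overlap for either gene, a state that 4.54% of all contigs shared in this direction. Because the study picked these contigs on this contrast, the count of 3 called among the 15 is a description, beside 0.403% of all contigs called.

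These calls differed in how much they leaned on the test and on single libraries. With edgeR's quasi-likelihood test, which called 0.0064% of all contigs, *MED28* had an FDR of 0.0542 and *salr* an FDR of 0.1249, so that neither was called. By that test 4 of the 15 contigs had an unadjusted *P* under 0.05, beside 2425 of all 31233 contigs. Without replicate 2 of LD 16:8, *salr* had a log2 fold change of 0.97 and an edgeR likelihood ratio FDR of 0.0938. *MED28* kept its likelihood ratio call when any 1 library was left out. Its log2 fold changes were then 1.48 to 1.95, with likelihood ratio FDRs of at most 0.00127. Without replicate 2 the quasi-likelihood FDR of *MED28* was 0.140. With line as a term in the model, the log2 fold change was 1.55 for *salr* (likelihood ratio FDR = 0.0143, quasi-likelihood FDR = 0.0687). For *MED28* it was 2.11 (likelihood ratio FDR = 2.23e-05, quasi-likelihood FDR = 0.00958). Within line 175OJ8 the mean at LD 16:8 was 2.50 times the level of the 1 diapausing CDL library for *salr* and 5.24 times for *MED28*, or 1.88 and 4.27 times without replicate 2. A fit to the 8 libraries of this line alone, added after seeing the data, takes the lone CDL libraries to vary like the other groups and gave 1.32 for *salr* (edgeR FDR = 0.271) and 2.39 for *MED28* (FDR = 5.99e-04, quasi-likelihood FDR = 0.0292). Both yolk protein genes moved in the same contrast: their summed level was 126 to 163 CPM at LD 16:8 against 285 to 618 CPM at the CDL. Their log2 fold changes were -1.52 for *Yp2* (edgeR likelihood ratio FDR = 0.0110) and -1.51 for *Yp3* (FDR = 0.0104). The quasi-likelihood FDR was 0.108 for each, so that neither was called by that test. The part of the yolk genes in the levels of *salr* and *MED28* was not tested.

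The *spen* contig was called in the same contrast with a log2 fold change of 3.42 (SE 0.743, edgeR FDR = 0.0104), although its groups overlapped. Without replicate 2 its log2 fold change was 0.17 and its edgeR FDR 0.986. The call was also lost when any 1 diapausing CDL library was left out, with FDRs of 0.0861, 0.0576, and 0.0962 without lines 175OJ8, 265OJ8, and 3OL8 in edgeR, at log2 fold changes of 3.36, 3.54, and 3.37. The quasi-likelihood FDR with all 12 libraries was 0.227.

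**Figure D2:**
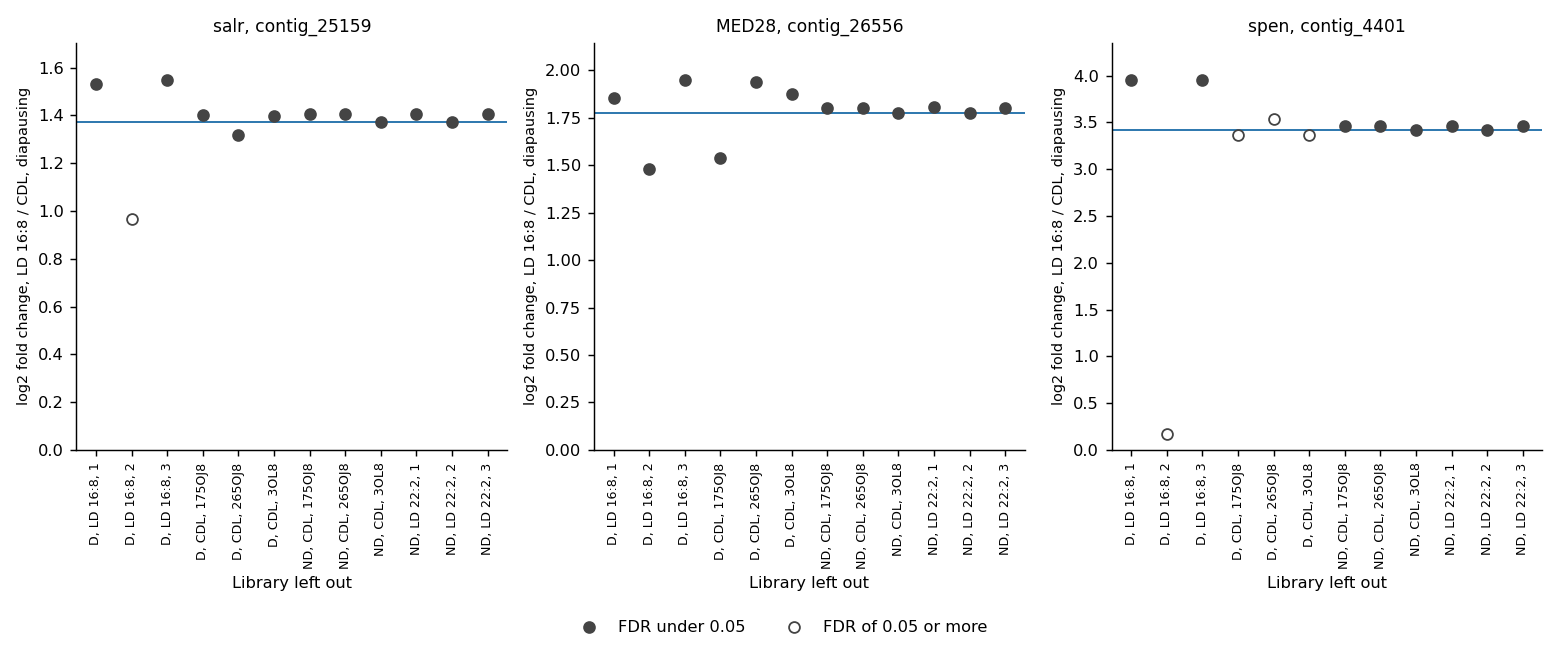
Log2 fold change of diapausing females at LD 16:8 over diapausing females at the CDL when the library named on the x axis is left out (D, diapausing; ND, nondiapausing), for the contigs of *salr*, *MED28*, and *spen*. The blue line is the value with all 12 libraries, filled points have an edgeR FDR under 0.05, and the points without LD 16:8 replicate 2 are the lowest, at 0.97, 1.48, and 0.17.

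The second comparison set the CDL against LD 22:2 in nondiapausing females. It shares no library with the contrast on which the study chose the contigs. None of the 15 contigs was called by the edgeR likelihood ratio test or by the quasi-likelihood test, which called 0.224% and 0.0032% of all contigs. In each test 1 of the 15 had an unadjusted *P* under 0.05, beside 1742 and 1724 of all 31233 contigs. That contig was *MED28*, with 15.5 ± 1.88 CPM at the CDL against 28.0 ± 7.42 CPM at LD 22:2 (SD, n = 3 each). Its log2 fold change was -0.85 (SE 0.288, edgeR FDR = 0.396), and its groups did not overlap, as in 6.71% of all contigs in that direction. In line 175OJ8 alone the *MED28* level at the CDL, from 1 library, was 0.520 times the LD 22:2 mean.

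In nondiapausing females *salr* averaged 6.56 ± 1.74 CPM under the CDL, against 7.19 ± 1.57 CPM under LD 22:2 (SD, n = 3 each), with a log2 fold change of -0.15 (SE 0.327, edgeR FDR = 0.9997). The *spen* contig averaged 14.8 ± 2.38 CPM under the CDL, against 11.5 ± 1.26 CPM under LD 22:2 (SD, n = 3 each), with a log2 fold change of 0.37 (edgeR FDR = 0.9997). The nondiapausing groups of *spen* did not overlap, by a margin of 12.5 against 12.4 CPM, and 5.9% of all contigs were higher at the CDL in the same way.

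The difference between these 2 contrasts, which the study tested as the interaction of diapause state and light cycle, was called for *MED28*. Each contrast sets the shorter day length over the longer, and *MED28* was higher at the shorter one in diapausing females with a negative log2 fold change in nondiapausing females. The interaction was 2.62 on the log2 scale (SE 0.411, edgeR FDR = 1.07e-06), seventh of all 31233 contigs by *P* and positive under each of 24 alternatives, with FDRs up to 0.0129. It was also called by the quasi-likelihood test (FDR = 0.00978). Of the 15 contigs, *MED28* was the only one called by either test, beside 1.07% of all contigs for the likelihood ratio test and 0.186% for the quasi-likelihood test. The diapausing side of this contrast is the one the study used to choose the contig. Its sides cover different light cycles, so that diapause state and the range of day lengths cannot be told apart.

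*salr* had an interaction of 1.52 on the log2 scale (SE 0.442) that missed the threshold, with an edgeR FDR of 0.0531. It passed without LD 16:8 replicate 1 (log2 value 1.68, FDR = 0.0329) and without replicate 3 (1.70, FDR = 0.0164), and was 1.12 without replicate 2 (FDR = 0.182). For *spen* the interaction was 3.05 (edgeR FDR = 0.173) with all libraries and -0.21 (FDR = 0.939) without LD 16:8 replicate 2, whereas it was 3.58 (FDR = 0.0210) without replicate 1 and 3.59 (FDR = 0.0107) without replicate 3.

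Diapausing and nondiapausing females can be compared at one light cycle and over the same lines at the CDL. *salr* was 12.3 ± 0.798 CPM in diapausing and 6.56 ± 1.74 CPM in nondiapausing females (SD, n = 3 each), a log2 fold change of 0.92 (SE 0.323, edgeR FDR = 0.0117, quasi-likelihood FDR = 0.0186). It was higher in diapausing females in each line, by 2.77 times in 175OJ8, 1.44 times in 265OJ8, and 1.80 times in 3OL8. Many contigs differed between these groups: 49.5% were called by the likelihood ratio test and 48.4% by the quasi-likelihood test, and 28.2% were higher in diapausing females without overlap, so that *salr* shares its call with a large part of the transcriptome. Whole females were used and nondiapausing females carry large ovaries, and fewer cells of a type cannot be told apart from less RNA per cell in such pools. The summed yolk level was 285 to 618 CPM in diapausing and 1319 to 1946 CPM in nondiapausing females at the CDL, both genes were called lower in diapausing females, and their part in the *salr* difference was not tested. Without the nondiapausing 175OJ8 library the log2 fold change of *salr* was 0.70 (edgeR FDR = 0.106), without TMM factors it was 0.57 (FDR = 0.117), and with line 175OJ8 alone it was 1.47 (FDR = 0.0502).

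*salr* was the only one of the 15 contigs called between states at the CDL by either test. Of all contigs 49.5% were called there by the likelihood ratio test and 48.4% by the quasi-likelihood test. *MED28* had 12.5 ± 3.78 CPM in diapausing and 15.5 ± 1.88 CPM in nondiapausing females (SD, n = 3 each; log2 fold change -0.32, SE 0.302, edgeR FDR = 0.383). Its ratio of diapausing to nondiapausing was 0.557 in line 175OJ8, 0.851 in 265OJ8, and 1.001 in 3OL8. Scaling without TMM factors moved its log2 fold change to -0.67 (FDR = 0.0486), while moving the median of all contigs to -0.27 from 0.08 with TMM. *spen* had a log2 fold change of -0.37 (edgeR FDR = 0.706), with 11.5 ± 1.52 CPM in diapausing and 14.8 ± 2.38 CPM in nondiapausing females (SD, n = 3 each).

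Diapausing females at LD 16:8 and nondiapausing females at LD 22:2 were all of line 175OJ8, and in this comparison diapause state and light cycle cannot be told apart. *salr* showed its largest difference here, 32.0 ± 13.6 CPM against 7.19 ± 1.57 CPM (SD, n = 3 each), a fitted log2 fold change of 2.14 (SE 0.302, edgeR FDR = 8.00e-11, quasi-likelihood FDR = 1.60e-05). It passed under each of 26 alternatives, with log2 fold changes of 1.73 to 2.38. Of all contigs 49.6% were called by the likelihood ratio test, 48.6% by the quasi-likelihood test, and 27.6% were higher without overlap, as *salr* was.

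*MED28* had a log2 fold change of 0.60 in this comparison (SE 0.279, edgeR FDR = 0.0605), with overlapping groups of 42.6 ± 14.1 CPM at LD 16:8 and 28.0 ± 7.42 CPM at LD 22:2 (SD, n = 3 each). Leaving out LD 16:8 replicate 3 gave 0.78 (FDR = 0.0204), leaving out LD 22:2 replicate 1 gave 0.89 (FDR = 0.0141), and leaving out the diapausing 175OJ8 CDL library, which is not one of the libraries compared, gave 0.60 (FDR = 0.0421). The value was 0.31 (edgeR FDR = 0.388) without LD 16:8 replicate 2, 0.49 (FDR = 0.212) without LD 22:2 replicate 2, and 0.55 (FDR = 0.159) without LD 22:2 replicate 3. *spen* had a log2 fold change of 3.42 (edgeR FDR = 1.26e-04, quasi-likelihood FDR = 0.00382), and 0.17 (FDR = 0.626) without LD 16:8 replicate 2.

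Ordered by mean level, *salr* ran diapausing LD 16:8, diapausing CDL, nondiapausing LD 22:2, nondiapausing CDL. The last neighbors did not differ beyond their spread, and the step between the diapausing groups was called as described above. *MED28* ran diapausing LD 16:8, nondiapausing LD 22:2, nondiapausing CDL, diapausing CDL, and none of the 3 steps between neighbors in that order was called. *spen*, without LD 16:8 replicate 2, ran nondiapausing CDL, diapausing LD 16:8, and then the remaining groups at 11.5 CPM each, and no contrast among these 11 libraries passed the threshold.

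The second contig with the *MED28* hit, contig_14952, did not move with contig_26556. It had 14, 11, and 34 reads in diapausing LD 16:8 libraries 1, 2, and 3, and 24, 21, and 30 reads in diapausing CDL libraries of lines 175OJ8, 265OJ8, and 3OL8. Nondiapausing females had 58, 55, and 28 reads at the CDL in the same order of lines, and 40, 43, and 72 reads at LD 22:2. Its group means were highest in nondiapausing females, whereas that of contig_26556 was highest in diapausing females at LD 16:8.

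Between light cycles, contig_14952 had log2 fold changes of -0.40 (SE 0.376, edgeR FDR = 0.915) in diapausing and 0.11 (FDR = 0.9997) in nondiapausing females. At the CDL it averaged 5.45 ± 1.60 CPM in diapausing and 8.35 ± 0.272 CPM in nondiapausing females (SD, n = 3 each), with a log2 fold change of -0.63 (edgeR FDR = 0.122) and no overlap, as in 27.7% of all contigs in that direction. In diapausing females at LD 16:8 it fell below nondiapausing females at LD 22:2, with 4.09 ± 2.50 CPM against 7.71 ± 2.14 CPM (SD, n = 3 each; log2 fold change -0.91, SE 0.357, edgeR FDR = 0.0236, quasi-likelihood FDR = 0.0431), although the groups overlapped, and without LD 16:8 replicate 2 the log2 fold change was -0.62 (edgeR FDR = 0.162).

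Across the 12 libraries the Pearson correlation of log2(CPM + 1) between the contigs of the *MED28* hit was -0.48, a description only, since the libraries share lines and light cycles. The share of the reads of the hit that fell on contig_26556 was 92.6%, 96.2%, and 82.0% in diapausing LD 16:8 libraries, against 62.5%, 78.1%, and 66.3% in diapausing CDL libraries. In nondiapausing females the share was 62.8%, 68.6%, and 63.2% at the CDL, against 86.5%, 76.0%, and 70.6% at LD 22:2. The lowest of these shares rested on 64 reads, with an exact 95% interval of 49.5 to 74.3%, and the highest on 293 reads, with 93.4 to 98.1%, intervals that cover counting error only. Contig lengths were not used, so the shares can be compared between libraries but not read as relative abundance of 2 transcripts.

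Besides contig_4401, 11 contigs carry the *spen* hit, and they did not share its high value. Their summed level was 369, 421, and 380 CPM in diapausing LD 16:8 libraries 1, 2, and 3, and 456, 427, and 359 CPM in diapausing CDL libraries of lines 175OJ8, 265OJ8, and 3OL8. In nondiapausing females the sum was 500, 440, and 439 CPM at the CDL, and 448, 440, and 453 CPM at LD 22:2. Replicate 2 of LD 16:8 lay inside the range of the other libraries for this sum, whereas contig_4401 took 45.0% of all reads of the hit in that library and 2.24 to 3.77% in each of the other 11.

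**Figure D3:**
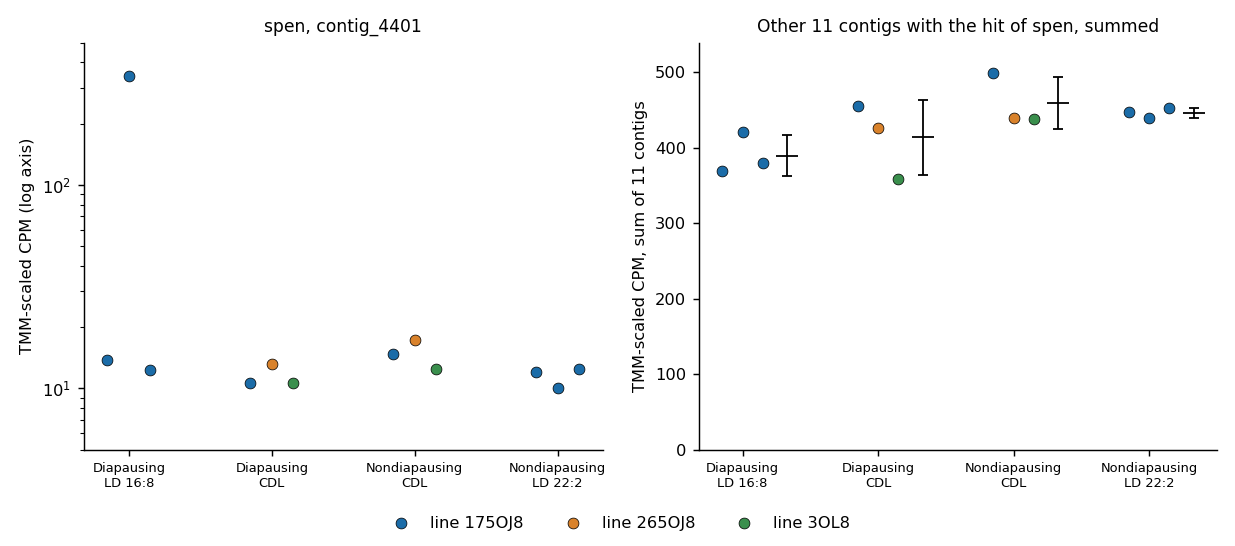
Left, TMM-scaled CPM of the *spen* contig (contig_4401) in each of 12 libraries on a log axis. Right, the sum of the other 11 contigs with the *spen* hit, with the mean and SD of 3 libraries per group. Colors give the isofemale line. The point at 344 CPM is LD 16:8 replicate 2, which has 421 CPM in the right panel, where all libraries lie between 359 and 500 CPM.

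When the counts of these 11 contigs were summed and tested as 1 row, an alternative added after seeing the data, diapausing LD 16:8 and diapausing CDL females averaged 390 ± 27.3 and 414 ± 50.1 CPM (SD, n = 3 each). The log2 fold change was -0.04 (SE 0.262, 95% interval -0.55 to 0.48, edgeR FDR = 0.999). Between diapausing and nondiapausing females at the CDL it was -0.24 (95% interval -0.75 to 0.28, FDR = 0.463).

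One by one, 0 of the 11 contigs were called by the edgeR likelihood ratio test in any of the 5 contrasts, and 1 was called in 1 contrast by the quasi-likelihood test. The likelihood ratio test called 0.403%, 0.224%, and 1.07% of all contigs in the light cycle contrasts and the interaction and 49.5% and 49.6% in the contrasts of states, and the quasi-likelihood test called 48.6% in the contrast of its 1 call. The likelihood ratio test gave an unadjusted *P* under 0.05 for 1 contig in LD 16:8 against LD 22:2, beside 17265 of all 31233 contigs. In the other 4 contrasts it gave 0. Over all contigs it gave 2287 in LD 16:8 against the CDL, 1742 in the CDL against LD 22:2, 3085 for the interaction, and 17311 between states at the CDL. The quasi-likelihood test gave 2 in LD 16:8 against LD 22:2, 1 in LD 16:8 against the CDL, 1 for the interaction, and 0 elsewhere. Over all contigs it gave 17228, 2425, and 3285 in these contrasts, 1724 in the CDL against LD 22:2, and 17250 between states at the CDL. In diapausing females between light cycles the log2 fold changes of the 11 contigs ran from -0.46 to 0.27. Their median was 0.04, beside a median of -0.03 over all contigs. The contig called by the quasi-likelihood test was contig_5876, chosen here after its values were seen, which averaged 95.4 ± 15.7 CPM in diapausing females at LD 16:8 and 148 ± 6.29 CPM in nondiapausing females at LD 22:2 (SD, n = 3 each; log2 fold change -0.63, quasi-likelihood FDR = 0.0187, likelihood ratio FDR = 0.0586 in edgeR). Its groups did not overlap, as in 28.7% of all contigs in that direction.

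**Figure D4:**
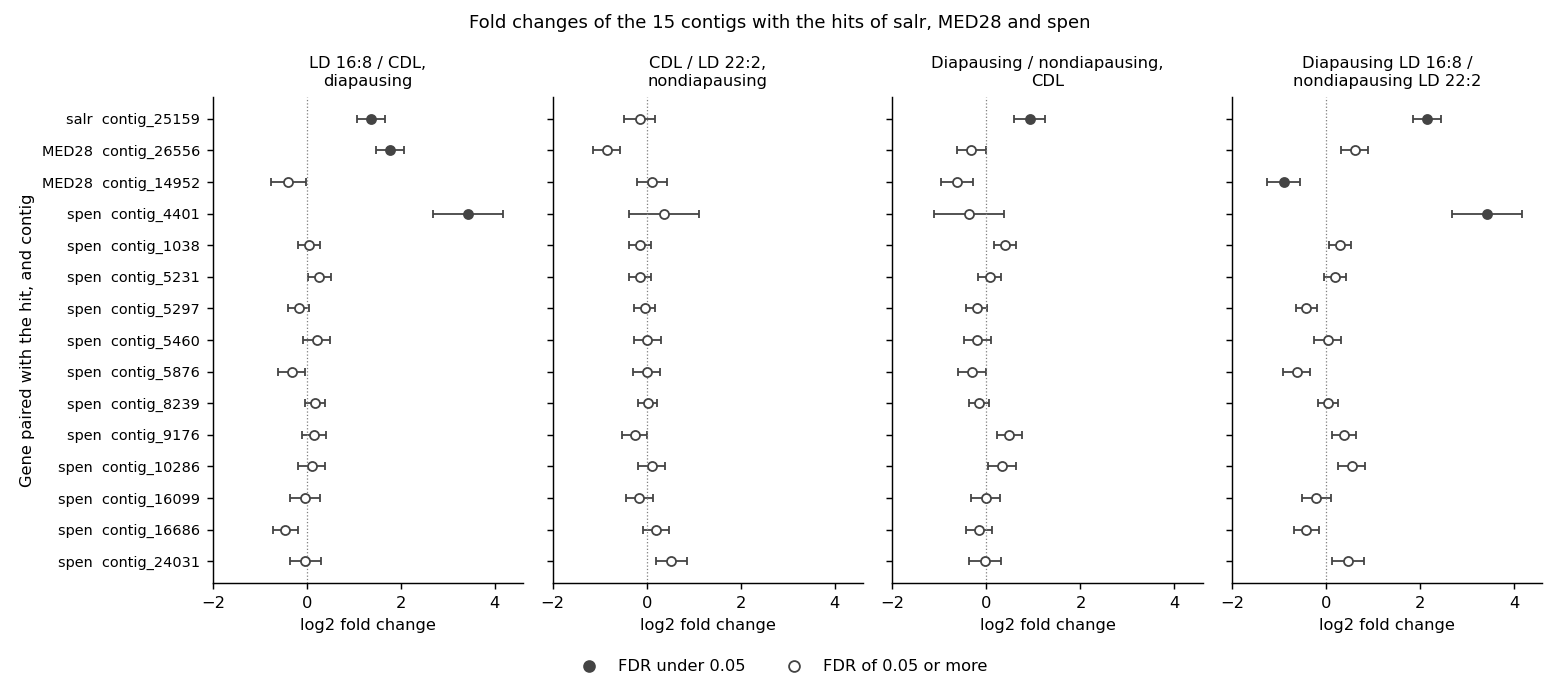
Log2 fold change (points) and SE (bars) of the 15 contigs that carry the hits of *salr*, *MED28*, or *spen* in 4 contrasts, filled where the edgeR likelihood ratio FDR was under 0.05. Of the *spen* contigs only contig_4401 is filled, with 3.42 in the first and the last panel.

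Isofemale line was tested as a term beside the 4 groups. Of the 15 contigs 1 was called by the likelihood ratio test, beside 1.85% of all contigs, and 0 by the quasi-likelihood test, beside 1.05% of all contigs, with 1 at an unadjusted *P* under 0.05. This was contig_24031 of the *spen* hit, with 33.4 CPM in diapausing and 35.0 CPM in nondiapausing females of line 3OL8 and 13.3 to 29.0 CPM in the 10 libraries of the other lines. The log2 difference of 3OL8 over 175OJ8 was 1.26 (SE 0.292, edgeR FDR = 0.00638, quasi-likelihood FDR = 0.0517). Both 3OL8 libraries lay above all others, and line 3OL8 occurred at the CDL only. The shares of all contigs in this state, and with an unadjusted *P* under 0.05 for line, were not counted. For *salr*, *MED28*, and contig_4401 the FDRs of the line term in edgeR were 0.998, 0.905, and 0.9998.

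The contigs whose levels followed each gene most closely were found by the Pearson correlation of log2(CPM + 1) among contigs that averaged 5 CPM or more. These are descriptions over libraries that share state, light cycle, and line, and no gene name was matched to them. For *salr* over 12 libraries they were contig_10780 (r = 0.96), contig_20502 (0.95), and contig_10648 (0.94), each highest in diapausing females at LD 16:8. For *MED28* they were contig_27159 (0.94), contig_16847 (0.94), and contig_28265 (0.93), each also highest at LD 16:8 and next highest in nondiapausing females at LD 22:2. For contig_4401 they were contig_29695 (0.99), contig_30220 (0.99), and contig_5844 (0.98), all of which rest on LD 16:8 replicate 2, with Spearman's rho of 0.52, 0.73, and 0.28. Over the other 11 libraries they were contig_2178 (0.85), contig_1273 (0.83), and contig_3802 (0.83).

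The study lists 8 further contigs whose function it gives as transcription, 4 for diapausing and 4 for nondiapausing females, chosen on these libraries and so no independent evidence of a direction. Of the 4 listed for diapausing females, 1 rose and 3 fell in LD 16:8 against the CDL by the likelihood ratio test. The quasi-likelihood test of edgeR called 0 of 4, with all 4 at an unadjusted *P* under 0.05. Of all 31233 contigs these tests called 0.403% and 0.0064%, and 2425 had an unadjusted quasi-likelihood *P* under 0.05. *YL-1* (contig_8119), a subunit of chromatin remodeling complexes, rose with *MED28* and *salr*, with 142 ± 68.4 CPM at LD 16:8 against 56.6 ± 2.31 CPM at the CDL (SD, n = 3 each; log2 fold change 1.32, edgeR FDR = 0.0327). Without LD 16:8 replicate 2 the LD 16:8 mean was 103 ± 19.1 CPM (SD, n = 2) and the log2 fold change 0.86 (edgeR FDR = 0.443). *YL-1* was also the only one of these 8 called by the quasi-likelihood test for the interaction (log2 value 2.40, FDR = 0.0216, edgeR), beside 0.186% of all contigs. With a line term the interaction was 2.71, and the quasi-likelihood call was lost (FDR = 0.0513, likelihood ratio FDR = 0.0182). Levels of *YL-1* correlated with those of *MED28* (r = 0.89 over 12 libraries) and less with those of *salr* (r = 0.53).

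*MED16* (contig_27981), another Mediator subunit, was lower at LD 16:8. It had 2, 2, and 6 reads in diapausing LD 16:8 libraries, or 0.435, 0.415, and 1.22 CPM, against 10, 11, and 29 reads, or 2.03, 2.21, and 7.01 CPM, in diapausing CDL libraries (log2 fold change -2.36, edgeR FDR = 0.0189, quasi-likelihood FDR = 0.253). The library at 7.01 CPM is of line 3OL8, and this contig differed by line, with 3OL8 over 175OJ8 at 1.47 on the log2 scale (edgeR FDR = 0.0178, quasi-likelihood FDR = 0.179). With a line term the light cycle value was -1.65 (edgeR FDR = 0.194), and without LD 16:8 replicate 2 it was -2.10 (FDR = 0.210), so that the call was lost in both. *wek* (contig_14939), a zinc finger gene, fell by 1.66 on the log2 scale (edgeR FDR = 0.0177), with 4 to 8 reads at LD 16:8 against 16 to 31 at the CDL, and the call was lost without LD 16:8 replicate 2 (-1.81, FDR = 0.0706) and with a line term (-1.63, FDR = 0.0768). *zfh2* (contig_26216), a gene with homeodomains and zinc fingers, resembled *spen* in that its value rested on 1 library, with 5750 reads in the diapausing 175OJ8 library at the CDL, 216 times the next highest level.

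Of the 4 contigs listed for nondiapausing females, 3 fell and 1 rose in the CDL against LD 22:2 by the likelihood ratio test. The quasi-likelihood test of edgeR called 0 of 4, again with 4 at an unadjusted *P* under 0.05. Of all 31233 contigs these tests called 0.224% and 0.0032%, and 1724 had an unadjusted quasi-likelihood *P* under 0.05. The 3 that fell each had a single high LD 22:2 library, as *spen* had at LD 16:8: *DMAP1* (contig_11196) in replicate 3, 80.8 times the next level, *NFAT* (contig_15201) in replicate 2, 36.8 times, and *Dichaete* (contig_15786) in replicate 1, 157 times. The one that rose was *fz2* (contig_2007), a Wingless receptor, with a log2 fold change of 1.82 (edgeR FDR = 0.0157) and no such library. Of the 8 contigs, which the study chose on these libraries, 4 had a library at least 5 times above every other. This held for 124 of all 31233 contigs.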

How the data were processed

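The authors mapped SOLiD reads from pools of whole females to their own transcriptome and deposited, for each of 12 libraries, HTSeq counts of reads per contig, without normalization. Whether both reads of a fragment were counted is not given in the sources used here. All 31233 contigs were tested, after 2 blank lines in each nondiapausing file were dropped. R 4.3.3 was used with edgeR 4.0.16 (TMM, Cox-Reid dispersions, a model of 4 groups, likelihood ratio tests, FDR threshold 0.05, prior count 0.125, as far as stated after the methods of the study), limma 3.58.1 and DESeq2 1.42.0.

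The members and lists were chosen with earlier results of these data known. Contigs named are the members, those with their hits, the 3 most correlated with each, the transcription contigs the study lists, and *Yp2* (contig_8009) and *Yp3* (contig_633) as a check of the diapause labels. Of 15189 distinct hits 0 matched a table of 15263 gene symbols, so other Mediator subunits, *salm* and *nito* were not analysed here. The script was tested on simulated data. Common biological variation was 0.237 (coefficient), above the counting error of the 3 contigs named with the genes.

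Libraries of one line at the CDL were paired: after removal of group means their correlations were 0.222, 0.153, and 0.341 over 30474 contigs. Alternatives were the quasi-likelihood test, DESeq2, RLE or no scaling factors, filterByExpr (minimum count 10), estimateDisp, a prior count of 2, only the groups compared, a line term with either test, a replicate block, counts summed over a hit, and each library left out. Line 175OJ8 alone and the sum of the other *spen* contigs were added after seeing the data.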

Additional observations from a re-analysis of the deposited data

Results flagged for a closer look

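*MED28* (contig_26556) had an interaction of diapause state and light cycle of 2.62 on the log2 scale (edgeR likelihood ratio FDR = 1.07e-06, quasi-likelihood FDR = 0.00978). Its diapausing side sets LD 16:8 against the CDL, and its nondiapausing side sets the CDL against LD 22:2. Diapause state and the range of day lengths therefore cannot be told apart in it. All 3 diapausing libraries at LD 16:8 lay above all 3 at the CDL, as in 4.54% of all contigs. All 3 nondiapausing libraries at the CDL lay below all 3 at LD 22:2, as in 6.71% of all contigs. Lines 265OJ8 and 3OL8 occur at the CDL only and 175OJ8 in all 4 groups. With a line term the interaction was 3.25 (edgeR FDR = 8.68e-05), and in line 175OJ8 alone it was 3.33 (FDR = 1.65e-04).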

How the results depend on the processing

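For *MED28* the interaction held under every alternative run, and so did *salr* in diapausing LD 16:8 against nondiapausing LD 22:2. The quasi-likelihood test ended the calls of LD 16:8 against the CDL in diapausing females, with FDRs of 0.1249 (*salr*, log2 fold change 1.37), 0.0542 (*MED28*, 1.77), and 0.227 (*spen*, 3.42). Over all contigs it called 2 there, 1 in nondiapausing females, and 58 for the interaction, against 126, 70, and 334. With a line term the counts were 261, 104, and 334 (134, 8, and 216 with the quasi-likelihood test), DESeq2 gave 30 in nondiapausing females, and the groups compared alone 146. In the first contrast *spen* was lost with only the groups compared (3.45, FDR = 0.0545), a line term (3.48, FDR = 0.0928; quasi-likelihood 3.48, FDR = 0.285), and counts summed over the hit (0.32, FDR = 0.965), and *salr* with a line term and the quasi-likelihood test (1.54, FDR = 0.0687). The summed counts gave *spen* 0.14 (FDR = 0.728) in LD 16:8 against LD 22:2. The hit of *salr* has 1 contig, so its own counts stayed the same in that fit of 15510 rows. Its interaction there was 1.56 (FDR = 0.0390). The sum of the other 11 *spen* contigs, added after seeing the data, reversed *spen* to -0.037, -0.084 (interaction), and -0.23 (LD 16:8 against LD 22:2).

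Without TMM factors the CDL contrast of states was 0.57 for *salr* and -0.67 for *MED28*, with a median of all contigs of -0.27. In LD 16:8 against LD 22:2, *MED28* passed with a line term (0.60, FDR = 0.0449; quasi-likelihood 0.60, FDR = 0.0437). A replicate block there, over numbers whose libraries did not vary together (r = -0.02, -0.12, and 0.07), gave *MED28* 0.58 (FDR = 0.0443) and *spen* 1.45 (FDR = 0.0781). With the lines as the replicate block no call at the CDL changed, and replicate numbers are not shared between the CDL and the other light cycles, where the line term, linked by 175OJ8, stands in for a block. Line 175OJ8 alone, added after seeing the data, ended the calls of *salr* (1.32, FDR = 0.271) and *spen* (3.54, FDR = 0.423) in diapausing females and of *salr* between states at the CDL (1.47, FDR = 0.0502), and likewise with the quasi-likelihood test (FDRs of 0.345, 0.556, and 0.0625). Its 8 libraries gave 16 calls in nondiapausing females and 7354 between states at the CDL, against 70 and 15451 (7 and 6472 with the quasi-likelihood test, which also gave 55 in diapausing females and 189 for the interaction).

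With each library left out, log2 values ran from 0.97 to 1.55 for *salr* and 0.17 to 3.96 for *spen* in diapausing females, 1.12 to 1.72 and -0.21 to 3.59 for their interactions, -0.31 to 0.091 for *salr* in nondiapausing females (0.091 when the CDL library from 175OJ8 was absent, 0.063 without LD 22:2 replicate 3), 0.70 to 1.11 for *salr* between states at the CDL, and 0.31 to 0.89 for *MED28* and 0.17 to 3.96 for *spen* in LD 16:8 against LD 22:2. DESeq2 gave no *P* value for *spen*. With 24 to 64 *salr* reads per nondiapausing library, counting error alone was 12.5 to 20.4% of the level.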
